A study of Mus musculus with 12 samples.

Results

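The transcripts of 10 genes of glycolysis were followed across normal mouse liver (NL) and mouse hepatocellular carcinomas (HCCs) treated with vehicle, MLN0128 or everolimus. The genes were *Gpi1*, *Pfkl*, *Pfkm*, *Pfkp*, *Tpi1*, *Gapdh*, *Pgk1*, *Pgam1*, *Eno1* and *Ldha*. They were picked by symbol for the steps between glucose 6-phosphate and lactate that cells share, and they make up 10 of the 17007 genes with a deposited value. All 10 passed the filter for testing of at least 0.5 FPKM (fragments per kilobase of transcript and sequencing depth, here with a further scaling between libraries) in at least 3 of 12 libraries, which left 14393 genes. *Pfkp* passed it through the tumors alone, since it was under 0.5 FPKM in all 3 normal livers, so a difference between tumor and normal liver was built into its passing.

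The normal livers came from WT C57BL/6 mice that were given no treatment. The 9 tumors carried the genotype RictorKOTsc2KO, a loss of both *Rictor* (mTORC2) and *Tsc2* (a brake on mTORC1). They arose in mice that were fl/fl for *Rictor* and for *Tsc2*, bred from lines on the C57BL/6J background, after a hydrodynamic tail vein injection of plasmids for c-MYC, MCL1 and Cre recombinase. This injection pushes plasmid into hepatocytes, so c-MYC (under the EF1α promoter), MCL1 and Cre reach only the cells that take plasmid up, and other cells of the liver keep both floxed genes. Vehicle-treated tumors shared these alleles and plasmids with the drug-treated tumors, so no comparison here isolates either deletion, and normal liver differed from the tumors in all of them. MLN0128 blocks the mTOR kinase in both of its complexes, whereas everolimus, a derivative of rapamycin, inhibits mTORC1. The methods of the study give either drug at 1 mg/kg per day by gavage on 6 days a week for 3 weeks. Dosing there began 6 days after injection, and mice were killed 3.7 weeks after injection. For the tumors that were sequenced, the results text of the study instead gives 3 days of treatment. Which duration applies to these libraries was not settled, and the groups were used as labelled. Ages were not given in the sources used here. There were 3 libraries per group, and nothing says whether each came from a separate mouse, so the p-values measure the spread between libraries.

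In glycolysis, glucose is phosphorylated, rearranged, phosphorylated again and split into a pair of triose phosphates, which are oxidised to pyruvate with a net gain of ATP. Lactate dehydrogenase then turns pyruvate to lactate and restores the NAD+ that the oxidation step consumes. Normal liver can run most of these steps in reverse to make glucose, and liver tumors commonly express more of the glycolytic enzymes than the tissue they come from. mTORC1 is known to raise glycolytic transcripts, partly through the transcription factors HIF1α and MYC.

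Reads recovered from the deposited FPKM and exon lengths numbered 17146103 to 25163782 per library. The authors' FPKM included a scaling between libraries beyond total reads, with factors of 0.591 to 0.602 in NL and 1.11 to 1.38 in the tumors. MLN0128 replicates 1 and 2 contained *Xist* RNA (191 and 155 FPKM) and were at 0 for the Y-linked genes *Ddx3y*, *Uty*, *Kdm5d* and *Eif2s3y*, unlike the other 10 libraries. Tests of MLN0128 are therefore given with and without them. *Pgk1* is itself on the X chromosome. *Rictor* was at 1.65 to 2.57 FPKM in NL, 1.05 to 1.5 under vehicle, 1.65 to 2.21 under MLN0128 and 1.58 to 1.93 under everolimus, and *Tsc2* at 4.50 to 5.32, 2.01 to 2.31, 2.81 to 3.96 and 2.78 to 2.87, values of the whole gene that do not single out the floxed exons. *Mcl1* was at 50.2 to 53.9 FPKM in NL, 143 to 211 under vehicle, 461 to 1120 under MLN0128 and 235 to 354 under everolimus. *Myc* was at 4.01 to 12.2, 0.807 to 1.62, 0.907 to 1.38 and 0.799 to 3.01 in the same order. Transcripts from the plasmids were not told apart from those of the mouse genes. The summed FPKM of 5 hepatocyte markers (*Alb*, *Ttr*, *Apoa1*, *Cyp2e1* and *Serpina1c*) was 80750 to 99497 in NL and 3373 to 5473 under vehicle. It was 1608 to 3490 under MLN0128 and 2703 to 7469 under everolimus. Of these markers, 5 of 5 were called lower in vehicle-treated tumors than in NL, beside 33% of all tested genes. Values are from bulk tissue, in which fewer cells of a type and less RNA per cell cannot be told apart.

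Positions of the 10 genes are given on GRCm38 (GENCODE M21 annotation). *Gpi1* (ENSMUSG00000036427.5) is on chromosome 7, 34201330 to 34230336, minus strand. *Pfkl* (ENSMUSG00000020277.10) is on chromosome 10, 77986947 to 78010083, minus strand. *Pfkm* (ENSMUSG00000033065.14) is on chromosome 15, 98092589 to 98132451, plus strand. *Pfkp* (ENSMUSG00000021196.14) is on chromosome 13, 6579768 to 6648777, minus strand. *Tpi1* (ENSMUSG00000023456.15) and *Gapdh* (ENSMUSG00000057666.18) are both on the minus strand of chromosome 6, at 124810586 to 124814296 and 125161715 to 125166467. *Pgk1* (ENSMUSG00000062070.12) is on chromosome X, 106187100 to 106203699, plus strand. *Pgam1* (ENSMUSG00000011752.7) is on chromosome 19, 41911923 to 41918660, plus strand. *Eno1* (ENSMUSG00000063524.13) is on chromosome 4, 150236721 to 150248879, plus strand. *Ldha* (ENSMUSG00000063229.15) is on chromosome 7, 46841475 to 46855627, plus strand. Of the 10, 7 have near-identical copies elsewhere that could share their reads (79 for *Gapdh*, 4 each for *Pgk1* and *Ldha*, 3 for *Eno1* and 1 each for *Gpi1*, *Tpi1* and *Pgam1*), and no copy with a deposited value exceeded 3.04 FPKM. *Gpi1* shares 741 exon bases with *Gm26762* on the opposite strand.

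Promoter windows from RefSeq (GRCm38.p6, 300 bases around a transcript start, most of them upstream) were available for all 10 genes, 16 windows in all. The windows were searched on both strands for CACGTG, the E-box that MYC binds, and for ACGTG or GCGTG, the core of the HIF site, which every CACGTG also contains. CACGTG was found in 2 of 10 genes, *Ldha* and *Pfkm*, beside 8.09% of all 27025 genes with a window and 7.15% of 32851 windows. The HIF core was found in 8 of 10 genes, all but *Gpi1* and *Tpi1*, beside 46.7% of all genes and 43.8% of windows. Windows of 3 genes are shown, 5′ to 3′ on the gene's own strand with CACGTG in capitals, because they set the letters beside the measurements that follow: *Ldha* (chr7:46845554-46845853, plus strand), *Pfkm* (chr15:98092339-98092638, plus strand, 1 of its 4 windows) and *Tpi1* (chr6:124814109-124814408, minus strand).
Ldha: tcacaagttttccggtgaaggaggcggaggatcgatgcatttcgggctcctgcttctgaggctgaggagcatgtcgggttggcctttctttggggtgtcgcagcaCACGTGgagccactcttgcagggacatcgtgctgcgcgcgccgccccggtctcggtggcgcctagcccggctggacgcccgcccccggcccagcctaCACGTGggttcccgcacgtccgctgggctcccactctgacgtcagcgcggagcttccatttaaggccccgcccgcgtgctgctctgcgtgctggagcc
Pfkm: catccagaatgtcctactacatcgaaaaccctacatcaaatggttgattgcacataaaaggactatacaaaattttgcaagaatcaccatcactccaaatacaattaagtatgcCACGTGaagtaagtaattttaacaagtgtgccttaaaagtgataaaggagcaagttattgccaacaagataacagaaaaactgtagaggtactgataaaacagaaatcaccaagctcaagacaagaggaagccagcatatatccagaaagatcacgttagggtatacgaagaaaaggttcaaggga
Tpi1: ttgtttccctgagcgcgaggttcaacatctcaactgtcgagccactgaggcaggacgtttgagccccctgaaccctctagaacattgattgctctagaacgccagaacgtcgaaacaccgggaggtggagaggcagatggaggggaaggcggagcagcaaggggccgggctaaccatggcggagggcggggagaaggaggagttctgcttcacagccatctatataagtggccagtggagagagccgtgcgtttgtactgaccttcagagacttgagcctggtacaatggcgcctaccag
The *Ldha* window shown holds 2 copies of CACGTG, whose first bases lie at -145 and -48 from the start, and the *Pfkm* window shown holds 1 at -136. The other *Ldha* window (chr7:46846832-46847131) holds none. The *Tpi1* window holds neither motif. *Ldha* and *Tpi1* transcripts were both higher in vehicle-treated tumors than in NL and both lower under MLN0128, and *Pfkm* was lower in vehicle-treated tumors. A match describes the letters of the window alone.

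Vehicle-treated tumors were compared with NL to see which of these transcripts differ in the tumors. Of the 10 genes, 9 were higher and *Pfkm* was lower in the tumors (limma's moderated test, Benjamini-Hochberg adjusted p under 0.05). Over all tested genes 36% were called higher and 33% lower. Among the 9, and among those called by the treat test below, was *Pfkp*, for which a difference from NL was built into passing the filter. The 3 tumors lay above the 3 NL libraries for 9 genes and below them for *Pfkm*, and over all tested genes 39% lay above and 35.1% below. The median log2 fold change was 1.12 over the 10 genes and 0.06 over all tested genes, on the scale of log2(FPKM + 1). In limma's treat test, which asks for more than a 1.5-fold change, 5 genes were higher, *Gpi1*, *Pfkl*, *Pfkp*, *Pgam1* and *Eno1*, where 15.9% of tested genes were called higher and 16.8% lower. With plain library totals instead of the scaling made by the authors, the median of all genes moved to 0.63 and that of the 10 genes to 2.04, and *Pfkm* was no longer lower (log2 fold change 0.020).

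MLN0128-treated tumors were compared with vehicle-treated tumors, all of them with *Rictor*, a subunit of mTORC2, deleted in the cells that took up Cre. Of the 10 genes 6 were lower, *Tpi1*, *Pgam1*, *Pfkp*, *Pgk1*, *Ldha* and *Gapdh*, and 0 were higher, where 17.1% of tested genes were called lower and 14.9% higher. These 6 genes were lower in all 3 MLN0128 libraries than in any vehicle library, as were 23.4% of tested genes, while 22.1% were higher in all 3. *Gpi1*, *Pfkl*, *Pfkm* and *Eno1* did not pass the test. The median log2 fold change was -0.71 for the 10 genes and -0.01 for all tested genes. Without MLN0128 replicates 1 and 2, which leaves 1 MLN0128 library whose spread is assumed to be that of the other groups, 2 genes were called lower, *Tpi1* (log2 fold change -1.14, adjusted p = 0.0142) and *Pgam1* (-0.95, adjusted p = 0.0305), where 7.5% of tested genes were called lower and 4.72% higher. The 4 genes outside the 6 were at -0.25 (*Gpi1*), -0.21 (*Pfkl*), -0.48 (*Pfkm*) and -0.11 (*Eno1*) in that fit, and none was called. Over all alternatives, treat included, the adjusted p ranged from 0.000149 to 0.0467 for *Tpi1*, 0.000415 to 0.0962 for *Pgam1*, 0.000469 to 0.310 for *Pfkp*, 0.00491 to 0.820 for *Pgk1*, 0.00359 to 1 for *Ldha* and 0.00324 to 1 for *Gapdh*.

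Everolimus-treated tumors were compared with the same vehicle libraries, so that both drug comparisons share their controls. By limma's moderated test 0 of the 10 genes were called, where 3.77% of tested genes were called higher and 6.04% lower. At an unadjusted p under 0.05 the count was 1, *Pfkm*, the only gene that was lower in all 3 everolimus libraries than in all 3 vehicle libraries (14.8% of tested genes were). limma's treat test (0.0347% of tested genes higher, 0.57% lower) and voom on the recovered reads also called 0. The median log2 fold change was 0.01 for the 10 genes and 0.03 for all tested genes. Apart from *Pfkm*, the 95% confidence intervals ran from -0.58 (*Pgam1*) to 0.75 (*Pfkl*), so changes of that size were within the error.

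The drugs were also compared with each other, at 1 mg/kg per day each. Under MLN0128, 5 of the 10 genes were lower than under everolimus, *Pfkp*, *Tpi1*, *Pgam1*, *Pgk1* and *Ldha*, where 5.54% of tested genes were called lower and 3.99% higher. Over all tested genes 15.2% were lower in all 3 MLN0128 libraries, and of the 10 genes 6 were, these 5 and *Gapdh*. The median log2 fold change was -0.69 for the 10 genes and -0.03 for all tested genes. Without MLN0128 replicates 1 and 2, 0 genes were called by limma's moderated test, and in a fit of the 2 groups alone the count was also 0. Over all 14393 tested genes, the fit of the 2 groups alone called 1 higher and 5 lower. limma's treat test called 0 of the 10 genes as well, and over all tested genes 0.00695% higher and 0.0347% lower. In the fit without those libraries, where 0.646% of tested genes were called lower and 0.507% higher, the 5 log2 fold changes were -0.67 to -0.89, and the others were -0.49 (*Gapdh*), -0.55 (*Pfkl*), -0.41 (*Gpi1*), -0.34 (*Eno1*) and 0.019 (*Pfkm*). Everolimus replicate 2 was the lowest of its group for 9 of the 10 genes, and without it 7 were called lower, whereas 2 were without MLN0128 replicate 1 or without everolimus replicate 3, and 3 without everolimus replicate 1. Calls over all 14393 tested genes moved too, from 797 lower with all libraries to 989 without everolimus replicate 2. They were 108 without MLN0128 replicate 1, 96 without everolimus replicate 3 and 367 without everolimus replicate 1. Over all alternatives the adjusted p ranged up to 1 for each of the 5, from 0.00238 for *Pfkp*, 0.00286 for *Tpi1*, 0.00635 for *Pgam1*, 0.0107 for *Ldha* and 0.0159 for *Pgk1*.

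**Figure D1:**
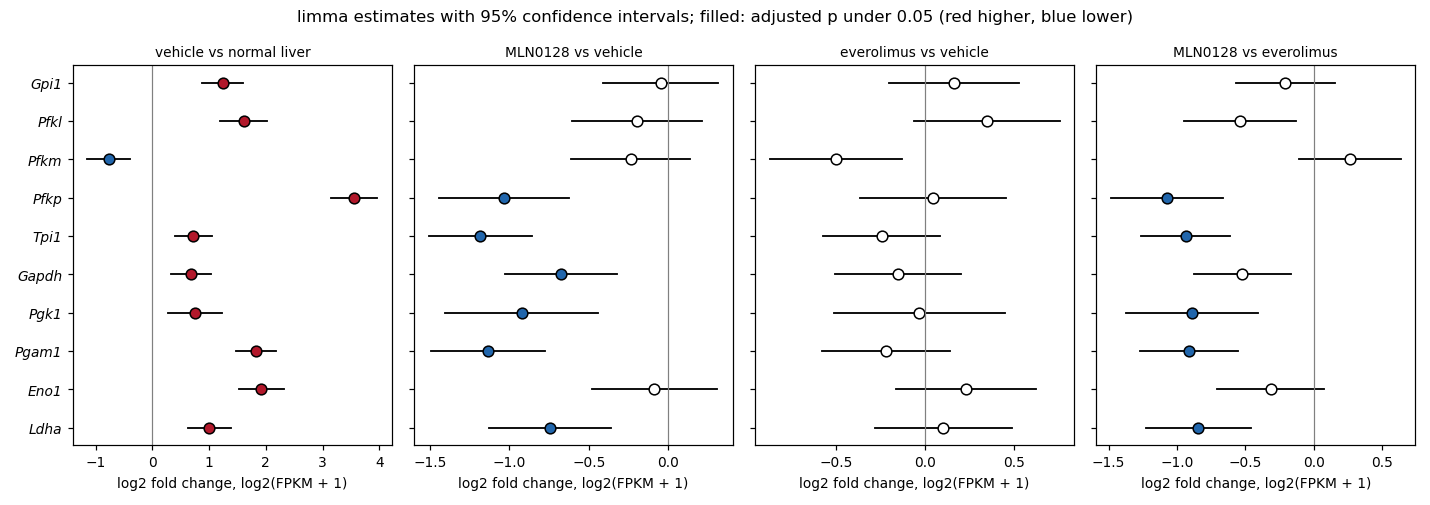
Log2 fold changes of the 10 genes on the log2(FPKM + 1) scale (horizontal axes, a range of its own for each comparison) with 95% confidence intervals from limma, 3 libraries per group. Filled points passed an adjusted p of 0.05: 9 red and 1 blue for vehicle against NL, 6 blue for MLN0128 against vehicle, none for everolimus against vehicle and 5 blue for MLN0128 against everolimus.

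*Gpi1* encodes glucose-6-phosphate isomerase, which turns glucose 6-phosphate into fructose 6-phosphate. Its FPKM was 20.2, 27.3 and 19.6 in NL, 52.7, 54.1 and 54.4 under vehicle, 57.4, 54.2 and 45.1 under MLN0128, and 67.8, 47.6 and 67.3 under everolimus. All 9 tumors were above the NL libraries, and the 3 tumor groups overlapped one another. Vehicle against NL gave a fold change of 1.24 on the log2 scale (SE 0.166, adjusted p = 3.89e-05). MLN0128 against vehicle gave -0.05 (95% confidence interval -0.41 to 0.32, adjusted p = 0.854), and this value changed sign with the scaling. The contrast of everolimus with vehicle gave 0.16 (95% confidence interval -0.20 to 0.52, adjusted p = 0.586).

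Phosphofructokinase commits fructose 6-phosphate to glycolysis and is the main regulated step of the pathway. It is a tetramer of subunits from 3 genes: *Pfkl* (the liver isozyme), *Pfkm* (the muscle isozyme) and *Pfkp* (the platelet isozyme). *Pfkl* was at 7.46, 7.78 and 5.57 FPKM in NL, 21.8, 24.2 and 23.2 under vehicle, 22.2, 18.1 and 19.8 under MLN0128, and 31.6, 21.3 and 38.1 under everolimus. The tumors were above the NL libraries in every group, and all 3 tumor groups overlapped. The log2 fold change of *Pfkl* was 1.61 for vehicle against NL (SE 0.187, adjusted p = 1.27e-05), -0.20 for MLN0128 against vehicle (95% confidence interval -0.61 to 0.21, adjusted p = 0.449) and 0.34 for everolimus against vehicle (-0.07 to 0.75, adjusted p = 0.266). The value for everolimus rose to 0.57 and passed the test without everolimus replicate 2 (adjusted p = 0.0372, range over all alternatives 0.0372 to 1). MLN0128 against everolimus gave -0.54 (SE 0.187, adjusted p = 0.0897).

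*Pfkp* was scarce in NL, at 0.166, 0.189 and 0.129 FPKM, which correspond to 24, 28 and 18 reads. In tumors it was at 12, 13.3 and 12.7 FPKM under vehicle, 5.64, 4.85 and 6.69 under MLN0128, and 13.6, 9.18 and 17.8 under everolimus. The tumor levels were far above those of NL, and the MLN0128 libraries were below all vehicle and everolimus libraries. The mean of vehicle-treated tumors was 78.5 times that of NL, and the log2 fold change on the compressed log2(FPKM + 1) scale was 3.56 (SE 0.187, adjusted p = 3.46e-08). A difference from NL was built in, since the gene passed the filter through the tumors alone, so this p-value adds no support for one. Under MLN0128 *Pfkp* fell, by a log2 fold change of -1.03 against vehicle (SE 0.187, adjusted p = 0.00205) and -1.08 against everolimus (SE 0.187, adjusted p = 0.0100). With MLN0128 replicates 1 and 2 left out these were -0.83 (adjusted p = 0.0722) and -0.87 (adjusted p = 0.133). Everolimus against vehicle gave 0.04 (95% confidence interval -0.36 to 0.45, adjusted p = 0.911). Of the exon bases of *Pfkp*, 748 overlap *Pitrm1*, a mitochondrial protease gene on the opposite strand, which was higher under MLN0128 than under vehicle (log2 fold change 0.57, adjusted p = 0.0153) and higher under vehicle than in NL (1.44, adjusted p = 6.16e-06), and reads there cannot be told apart without strand.

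*Pfkm* ran the other way. Its FPKM was 8.16, 7.79 and 7.06 in NL, 4.81, 2.84 and 4.85 under vehicle, 3.96, 3.43 and 2.63 under MLN0128, and 2.54, 2.82 and 2.40 under everolimus. The 9 tumors were all below the NL libraries, and the everolimus libraries were all below the vehicle libraries. Vehicle against NL gave a fold change of -0.77 on the log2 scale (SE 0.170, adjusted p = 0.00163), which became 0.020 with plain library totals and 0.24 with equal FPKM sums. Everolimus against vehicle gave -0.50 (SE 0.170, adjusted p = 0.0825), and without vehicle replicate 2 it gave -0.70 and passed the test (adjusted p = 0.0137, range over all alternatives 0.0137 to 1). MLN0128 against vehicle gave -0.24 (95% confidence interval -0.61 to 0.13, adjusted p = 0.310), which passed at -0.44 without vehicle replicate 2 (adjusted p = 0.0423, range 0.0423 to 1). Of 5 skeletal muscle markers, 2 had deposited values, and *Ckm* was at 0 in all NL libraries. The summed FPKM of both was 0 to 0.0604 in NL, 0.473 to 1.61 under vehicle, 3.01 to 22.7 under MLN0128 and 1.07 to 7.07 under everolimus. The part of muscle tissue in the level of *Pfkm* was not tested. An annotated gene, *Gm26513*, shares 341 exon bases with *Pfkm* on the same strand.

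The makeup of phosphofructokinase transcripts differed between groups. As a share of the summed FPKM of the 3 genes, which compares levels per length, *Pfkm* was 52.2% ± 2.98 (SD, n = 3) in NL, 10.5% ± 2.98 under vehicle, 11.5% ± 2.15 under MLN0128 and 5.97% ± 2.25 under everolimus. *Pfkp* was 1.09% ± 0.0991 in NL, 31.7% ± 1.07 under vehicle, 19.7% ± 2.86 under MLN0128 and 28.9% ± 1.52 under everolimus. *Pfkl* was 46.8% ± 2.89, 57.8% ± 1.92, 68.8% ± 0.924 and 65.2% ± 1.13 in the same order. MLN0128 replicate 3 alone had 9.03% *Pfkm*, 23.0% *Pfkp* and 68.0% *Pfkl*. The *Pfkp* share did not overlap between any of the groups compared, and the *Pfkm* share did so only among tumors, between MLN0128 and vehicle and between everolimus and vehicle. With 3 against 3 libraries the smallest two-sided p of an exact permutation test is 0.1, so no share could pass 0.05, and the adjusted p over the 16 share tests was 0.133 for every comparison without overlap.

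Shares of *Pfkm* and *Pfkp* moved the same way when recovered reads were not divided by exon length, an alternative chosen after seeing the data. *Pfkm* was then 34.8% in NL and 4.15% under vehicle, and *Pfkp* was 2.91% and 50.3%. The *Pfkl* share depended on the division: it was higher by 11.03 percentage points in vehicle-treated tumors than in NL on the FPKM scale, and lower, at 45.6% against 62.3%, on the read scale. The exon lengths behind this are 13401 bases for *Pfkp*, 6675 for *Pfkl* and 3340 for *Pfkm*.

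**Figure D2:**
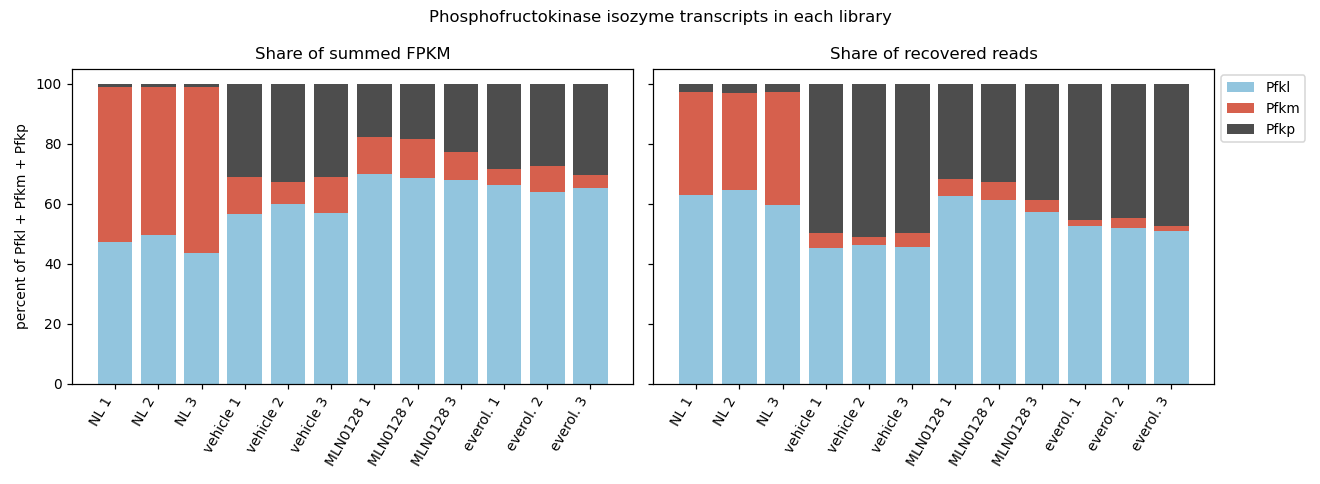
Stacked bars give the percent of *Pfkl*, *Pfkm* and *Pfkp* in each of the 12 libraries, from FPKM (left) and from recovered reads not divided by exon length (right). *Pfkm* holds 52.2% on average in NL and 10.5% under vehicle on the left, and *Pfkp* is the thin top band in NL (1.09%) and narrower under MLN0128 (19.7%) than under vehicle (31.7%).

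*Tpi1* encodes triosephosphate isomerase, which interconverts both products of the split sugar. It was at 214, 187 and 207 FPKM in NL, 336, 348 and 322 under vehicle, 140, 150 and 152 under MLN0128, and 299, 227 and 332 under everolimus. On the deposited scaling the MLN0128 libraries were the lowest of all 12, below NL as well. With plain library totals they were above NL. *Tpi1* rose in vehicle-treated tumors (log2 fold change 0.73, SE 0.149, adjusted p = 0.00103) and had the largest fall of the 10 genes under MLN0128 (-1.18, SE 0.149, adjusted p = 0.000345), the only one that passed limma's treat test (adjusted p = 0.0467, where 1.65% of tested genes were called lower). Against everolimus the difference was -0.94 (SE 0.149, adjusted p = 0.00766). Without MLN0128 replicates 1 and 2 these were -1.14 (adjusted p = 0.0142) and -0.89 (adjusted p = 0.0852). The contrast of everolimus with vehicle gave -0.25 (95% confidence interval -0.57 to 0.08, adjusted p = 0.321).

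*Gapdh* encodes glyceraldehyde-3-phosphate dehydrogenase, the oxidation step that consumes NAD+, and its transcript is widely used as a reference in quantitative PCR. It was at 357, 408 and 374 FPKM in NL, 590, 678 and 566 under vehicle, 414, 344 and 390 under MLN0128, and 561, 465 and 633 under everolimus. The MLN0128 libraries overlapped the NL libraries and were below all vehicle and everolimus libraries. Its log2 fold change was 0.68 for vehicle against NL (SE 0.162, adjusted p = 0.00262) and -0.67 for MLN0128 against vehicle (SE 0.162, adjusted p = 0.00875). The fall under MLN0128 missed the threshold with equal FPKM sums (-0.43, adjusted p = 0.0540) and without MLN0128 replicates 1 and 2 (-0.64, adjusted p = 0.0865), within a range of 0.00324 to 1 over all alternatives. MLN0128 against everolimus gave -0.52 (SE 0.162, adjusted p = 0.0642) and everolimus against vehicle -0.15 (95% confidence interval -0.51 to 0.20, adjusted p = 0.597). Near-identical copies elsewhere in the genome, 76 of 79 of them pseudogenes, could share reads with *Gapdh*, and the 8 that have deposited values did not exceed 2.54 FPKM.

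*Pgk1* encodes phosphoglycerate kinase, the first step that yields ATP. It was at 244, 243 and 306 FPKM in NL, 410, 521 and 406 under vehicle, 251, 186 and 272 under MLN0128, and 435, 330 and 564 under everolimus. The MLN0128 and NL libraries overlapped, and every vehicle and everolimus library was above them. *Pgk1* had the widest error of the 10 genes (SE 0.220), with log2 fold changes of 0.75 for vehicle against NL (adjusted p = 0.00954), -0.92 for MLN0128 against vehicle (adjusted p = 0.00864) and -0.89 for MLN0128 against everolimus (adjusted p = 0.0305). Among MLN0128 libraries, replicates 1 and 2 with *Xist* RNA were at 251 and 186 FPKM and replicate 3 without it at 272. In replicate 3 alone the difference was -0.70 against vehicle (adjusted p = 0.149) and -0.67 against everolimus (adjusted p = 0.260). The difference from everolimus also missed the threshold with plain library totals (-0.75, adjusted p = 0.0533) and with equal FPKM sums (-0.64, adjusted p = 0.0845). Everolimus against vehicle gave -0.03 (95% confidence interval -0.51 to 0.45, adjusted p = 0.945).

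*Pgam1* encodes phosphoglycerate mutase, which moves the phosphate within phosphoglycerate. It was at 57.6, 56.2 and 43.5 FPKM in NL, 170, 195 and 199 under vehicle, 81.7, 77.9 and 96.5 under MLN0128, and 178, 130 and 179 under everolimus. Under MLN0128 it lay between NL and the other tumors, with no overlap on either side. It rose in vehicle-treated tumors (log2 fold change 1.83, SE 0.164, adjusted p = 1.63e-06) and fell under MLN0128 against vehicle (-1.13, SE 0.164, adjusted p = 0.000637) and against everolimus (-0.91, SE 0.164, adjusted p = 0.0111). Leaving out MLN0128 replicates 1 and 2, these falls were -0.95 (adjusted p = 0.0305) and -0.73 (adjusted p = 0.142). The contrast of everolimus with vehicle gave -0.22 (95% confidence interval -0.58 to 0.14, adjusted p = 0.420).

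*Eno1* encodes enolase 1, which follows phosphoglycerate mutase and forms phosphoenolpyruvate. It was at 84.4, 107 and 85.7 FPKM in NL, 334, 381 and 338 under vehicle, 369, 300 and 324 under MLN0128, and 468, 314 and 471 under everolimus. The 3 tumor groups overlapped, and all 9 tumors were above NL. Its log2 fold change in vehicle-treated tumors was the largest of the 10 genes after *Pfkp* (1.92, SE 0.180, adjusted p = 2.36e-06). MLN0128 against vehicle gave -0.09 (95% confidence interval -0.48 to 0.31, adjusted p = 0.745), a value that became 0.15 with equal FPKM sums, and against everolimus it gave -0.32 (95% confidence interval -0.71 to 0.08, adjusted p = 0.290). Everolimus against vehicle gave 0.23 (95% confidence interval -0.17 to 0.62, adjusted p = 0.455).

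*Ldha* encodes the A subunit of lactate dehydrogenase, the form that predominates in liver. It was at 337, 350 and 254 FPKM in NL, 590, 739 and 558 under vehicle, 401, 352 and 366 under MLN0128, and 715, 602 and 696 under everolimus. All MLN0128 libraries were above the NL libraries, by as little as 352 against 350, and below every vehicle and everolimus library. *Ldha* rose in vehicle-treated tumors (log2 fold change 1.00, SE 0.175, adjusted p = 0.000306) and fell under MLN0128 against vehicle (-0.74, SE 0.175, adjusted p = 0.00805) and against everolimus (-0.84, SE 0.175, adjusted p = 0.0168). With MLN0128 replicate 3 alone the falls were -0.77 (adjusted p = 0.0739) and -0.87 (adjusted p = 0.116), of about the same size but with a wider error. The contrast of everolimus with vehicle gave 0.10 (95% confidence interval -0.28 to 0.48, adjusted p = 0.768). *Ldhb*, the gene of the other main subunit, was scarce, so that *Ldha* made up 99.4% ± 0.402 (SD, n = 3) of the summed FPKM of both in NL, 99.2% ± 0.634 under vehicle, 99.8% ± 0.0916 under MLN0128 and 99.9% ± 0.0339 under everolimus.

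**Figure D3:**
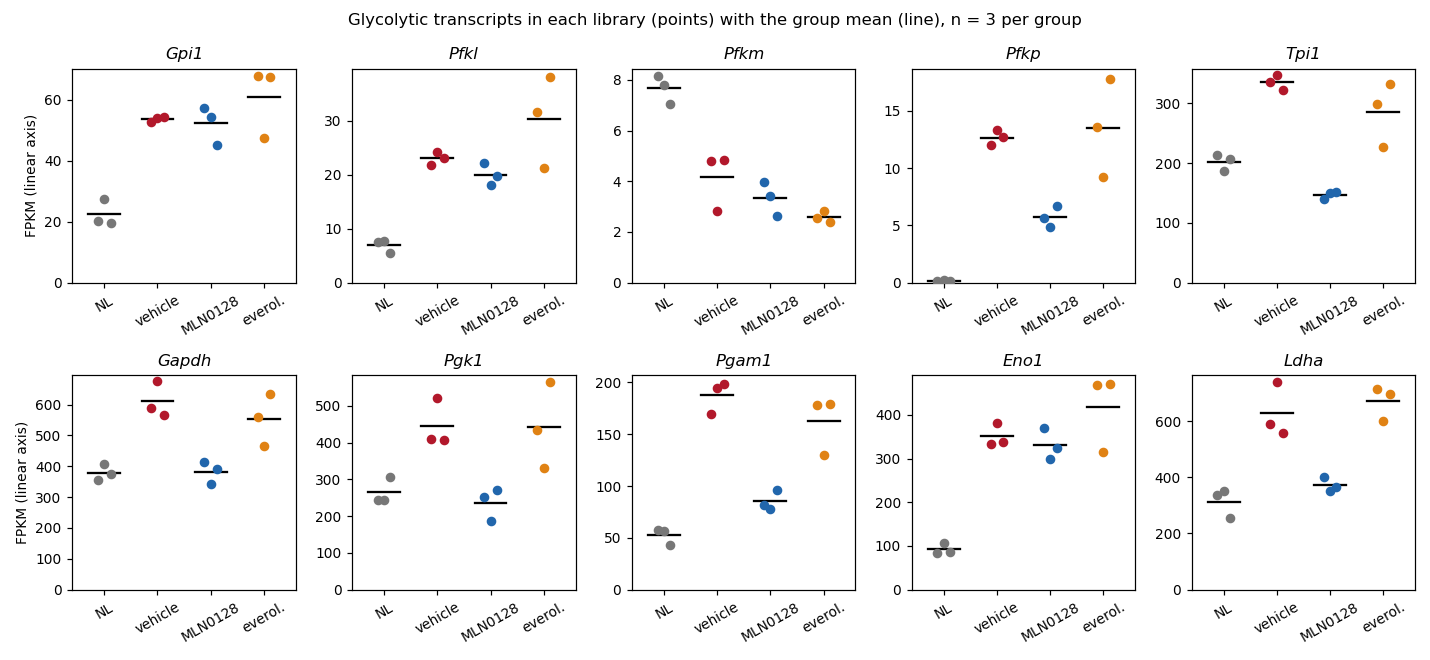
FPKM of the 10 genes (linear vertical axes from 0, a range of its own for each gene) in the 12 libraries. Points are libraries and lines are means of 3. On this deposited scaling *Pfkm* is highest in NL (7.06 to 8.16), *Pfkp* is near 0 there (0.129 to 0.189), and *Tpi1* under MLN0128 (140 to 152) lies below every other library.

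The order of the levels, per length, differed between NL and tumors among the phosphofructokinase genes, where *Pfkm* went from the eighth place to the last. In NL the means ran *Gapdh* (380 FPKM), *Ldha* (314), *Pgk1* (264), *Tpi1* (203), *Eno1* (92.4), *Pgam1* (52.4), *Gpi1* (22.4), *Pfkm* (7.67), *Pfkl* (6.94) and *Pfkp* (0.161). The libraries of neighbours in that order overlapped for *Ldha* and *Pgk1* and for *Pfkm* and *Pfkl*. Under vehicle the order was *Ldha* (629), *Gapdh* (611), *Pgk1* (446), *Eno1* (351), *Tpi1* (335), *Pgam1* (188), *Gpi1* (53.7), *Pfkl* (23.1), *Pfkp* (12.7) and *Pfkm* (4.17), with overlaps between *Ldha* and *Gapdh* and between *Eno1* and *Tpi1*. Everolimus gave the same order as vehicle, with overlap between all neighbours among its first 5 genes. Under MLN0128 *Eno1* (331) stood ahead of *Pgk1* (236) and *Tpi1* (147), *Gapdh* (383) overlapped *Ldha* (373), and *Ldha* overlapped *Eno1*.

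Drug-treated tumors were also set beside NL, with no test. Under everolimus, 9 of the 10 genes were above NL in all libraries and *Pfkm* was below it, as under vehicle. Under MLN0128, 6 were above (*Gpi1*, *Pfkl*, *Pfkp*, *Pgam1*, *Eno1* and *Ldha*), *Gapdh* and *Pgk1* overlapped, and *Tpi1* and *Pfkm* were below. Shares over all tested genes were not computed for the drug groups against NL. For vehicle against NL, 39% of tested genes lay above and 35.1% below. The ratio of the MLN0128 mean to the normal mean was 3.58 for *Eno1*, 2.89 for *Pfkl*, 2.34 for *Gpi1*, 1.63 for *Pgam1*, 1.19 for *Ldha*, 1.008 for *Gapdh*, 0.894 for *Pgk1* and 0.727 for *Tpi1*. These ratios rest on the authors' scaling: with plain library totals the ratio of *Tpi1* was 1.55, that of *Gapdh* 2.15 and that of *Pgk1* 1.93, all above NL, and that of *Pfkm* went from 0.435 to 0.920, which overlapped NL. As a share of all FPKM in a library, the 10 genes together took 0.167% to 0.183% in NL and 0.727% to 0.852% under vehicle. They took 0.451% to 0.663% under MLN0128 and 0.738% to 0.824% under everolimus. In this share the MLN0128 range lay below those of both other tumor groups and above that of NL. No scaling changes the share, but it depends on all other transcripts, as equal FPKM sums do. All FPKM summed to 763521 to 779309 in NL and 317858 to 346812 under vehicle. Those of the 10 genes summed to 1303 to 1394 in NL and 2484 to 2956 under vehicle.

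Ratios of transcripts within a library do not depend on scaling. They were chosen after the values were seen, each setting a gene that fell under MLN0128 over one that was not called, so a lower ratio under MLN0128 was built into the choice, and they were not tested. *Tpi1* was 6.38, 6.43 and 5.92 times *Gpi1* under vehicle, 2.44, 2.77 and 3.37 times under MLN0128 and 4.41, 4.77 and 4.93 times under everolimus. *Pgam1* was 0.509, 0.512 and 0.589 of *Eno1* under vehicle, 0.221, 0.260 and 0.298 under MLN0128 and 0.380, 0.414 and 0.380 under everolimus. *Pfkp* was 0.550, 0.550 and 0.547 of *Pfkl* under vehicle, 0.254, 0.268 and 0.338 under MLN0128 and 0.430, 0.431 and 0.467 under everolimus. In NL the ratios were 6.85 to 10.6 for *Tpi1* to *Gpi1*, 0.508 to 0.682 for *Pgam1* to *Eno1*, which overlapped vehicle, and 0.0223 to 0.0243 for *Pfkp* to *Pfkl*. For each of these pairs the tumor groups did not overlap, and everolimus lay between MLN0128 and vehicle. Other pairs were not computed, so the place of everolimus describes these hand-picked pairs alone. By limma's test none of the 6 genes had been called under everolimus.

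**Figure D4:**
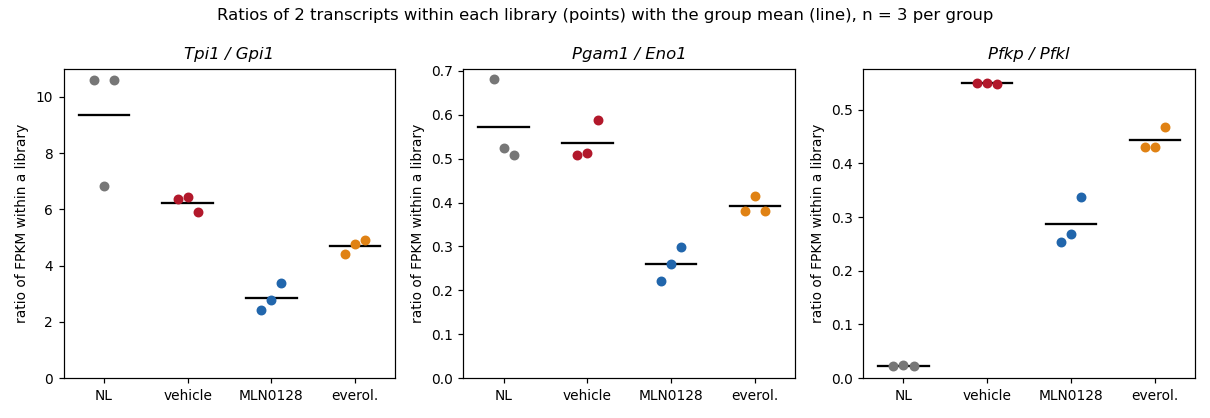
Ratios of FPKM within each library (vertical axes from 0) for *Tpi1* to *Gpi1*, *Pgam1* to *Eno1* and *Pfkp* to *Pfkl*. Points are libraries and lines are means of 3. The MLN0128 libraries are below the everolimus libraries, and these below the vehicle libraries, in each panel, for example 2.44 to 3.37, 4.41 to 4.93 and 5.92 to 6.43 for *Tpi1* to *Gpi1*. NL is above vehicle in that panel (6.85 to 10.6), overlaps vehicle for *Pgam1* to *Eno1* and is lowest for *Pfkp* to *Pfkl*.

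Scaling touched the comparison with NL most. With equal FPKM sums the median log2 fold change of vehicle against NL was 2.29 for the 10 genes and 0.80 for all tested genes, a difference of 1.49, where the deposited scaling gave a difference of 1.07. For MLN0128 against vehicle the medians were -0.47 and 0.17 with equal FPKM sums, a difference of -0.64, where the deposited scaling gave -0.70. *Tpi1*, *Pgam1*, *Pfkp*, *Pgk1* and *Ldha* were called lower for MLN0128 against vehicle with all 4 scalings, and *Gapdh* with 3 of them.

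**Figure D5:**
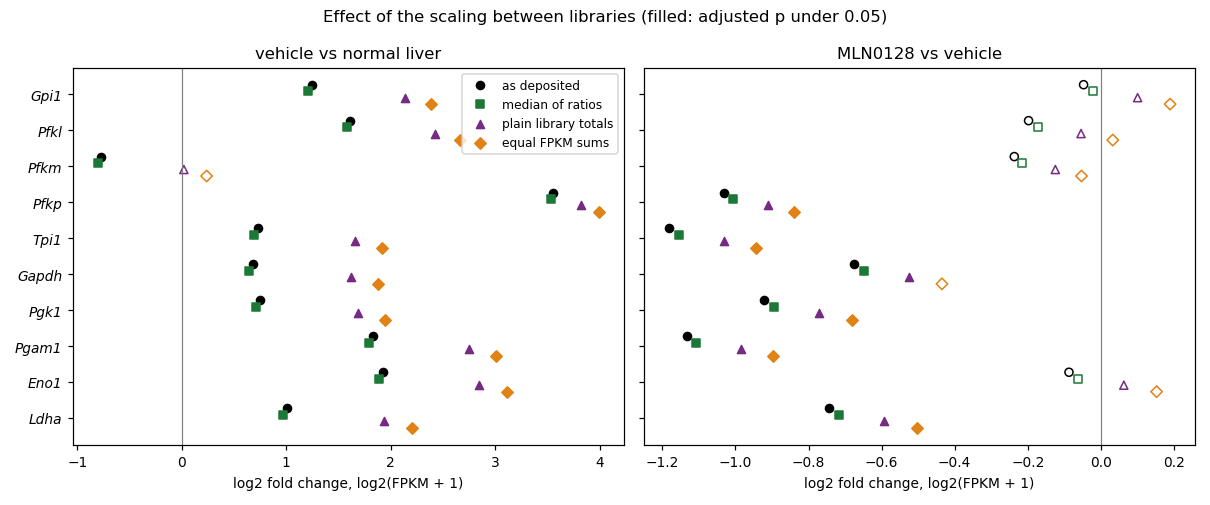
Log2 fold changes on the log2(FPKM + 1) scale (horizontal axes) for vehicle against NL (left) and MLN0128 against vehicle (right) under 4 scalings between libraries, filled where the adjusted p was under 0.05. On the left, plain totals and equal sums lie to the right of the deposited values for all 10 genes, and *Pfkm* crosses 0 (-0.77, 0.02 and 0.24).

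Other glycolytic enzymes and isozymes changed in both directions. Of 17 tested, 6 were higher and 6 lower in vehicle-treated tumors than in NL, close to the 36% and 33% of all tested genes. Among those that rose was *Pkm*, a pyruvate kinase of proliferating tissues, which went from 3.74 ± 0.522 to 218 ± 48.7 FPKM (SD, n = 3, log2 fold change 5.52, adjusted p = 3.05e-09). *Hkdc1*, a gene with hexokinase domains (4.59), and *Hk2*, hexokinase 2 (3.22), rose as well. Their means in NL were 0.00603 and 0.195 FPKM, so like *Pfkp* they passed the filter through the tumors alone. Under MLN0128, 4 of 17 were lower than under vehicle and 2 higher, beside 17.1% and 14.9% of all tested genes. Among them were *Hkdc1* (-3.04), *Ldhb* (-1.59) and *Pklr*, the liver pyruvate kinase (-0.89), and *Gapdhs*, the sperm form of *Gapdh* (0.92). Under everolimus 3 of 17 were lower than under vehicle, *Hkdc1* (-2.28), *Ldhb* (-1.81) and *Pklr* (-0.99), beside 6.04% of all tested genes. Between the drugs, 2 were lower under MLN0128, beside 5.54% of all tested genes. These were *Aldoc* (-0.70), an aldolase, and *Bpgm* (-0.52), which makes 2,3-bisphosphoglycerate. MLN0128 replicates 1 and 2 were also left out for this and the following lists, a step added after seeing the data. The median log2 fold change of the 17 under MLN0128 was then -0.38 against vehicle and -0.25 against everolimus. With all libraries it was -0.28 and -0.10.

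Transporters and the regulators of phosphofructokinase were taken from lists. Over all tested genes, 36% were called higher and 33% lower for vehicle against NL, and 14.9% and 17.1% for MLN0128 against vehicle. For everolimus against vehicle the shares were 3.77% higher and 6.04% lower. Of 7 glucose and lactate transporters, 3 were higher and 2 lower in vehicle-treated tumors, close to the shares of all tested genes. Under MLN0128, 3 were lower than under vehicle. *Slc2a1*, the glucose transporter GLUT1, was at 4.74 ± 0.186 FPKM (SD, n = 3) in NL, 20.1 ± 8.86 under vehicle and 3.02 ± 1.03 under MLN0128, with log2 fold changes of 1.80 in tumors and -2.34 under MLN0128 (adjusted p = 0.000557). *Slc16a3*, the lactate exporter MCT4, had log2 fold changes of 3.05 and -1.80. Its mean in NL was 0.129 FPKM, so it too passed the filter through the tumors alone. *Slc2a2*, the glucose transporter GLUT2 of hepatocytes, went the other way in tumors, from 96.4 ± 12.5 FPKM in NL to 12.7 ± 4.41 under vehicle (SD, n = 3, log2 fold change -2.88, adjusted p = 2.80e-05). Leaving out MLN0128 replicates 1 and 2, the median log2 fold change of the 7 under MLN0128 against vehicle was -0.67, where all libraries gave -0.57. Under everolimus 0 of 7 were called against vehicle. Of 4 tested genes that make or remove fructose 2,6-bisphosphate, the activator of phosphofructokinase, 2 were lower under MLN0128, *Tigar* (-1.12) and *Pfkfb1* (-0.95), and 1 was higher under everolimus, *Pfkfb3* (0.92). The median log2 fold change of the 4 under MLN0128 against vehicle was -0.38, or -0.42 when MLN0128 replicates 1 and 2 were left out. In vehicle-treated tumors *Pfkfb3* (-2.55), *Pfkfb1* (-1.34) and *Pfkfb2* (-1.21) were lower and *Tigar* (1.68) higher than in NL.

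Lists for the steps that lead away from this trunk were counted as well. Over all tested genes, 36% were called higher and 33% lower for vehicle against NL, and 14.9% and 17.1% for MLN0128 against vehicle. The shares were 3.77% and 6.04% for everolimus against vehicle, and 3.99% and 5.54% for MLN0128 against everolimus. Of 13 genes for the entry of pyruvate into mitochondria, 4 were higher and 6 lower in vehicle-treated tumors, beside 36% and 33% of all tested genes, and 5 were lower and 1 higher under MLN0128 than under vehicle, beside 17.1% and 14.9%. The median log2 fold change of the 13 under MLN0128 against vehicle was -0.40, or -0.73 without MLN0128 replicates 1 and 2. *Pdk4*, a kinase that switches off pyruvate dehydrogenase, had a log2 fold change of 4.24 in tumors, -3.01 under MLN0128 and -1.86 under everolimus. *Mpc1*, a subunit of the mitochondrial pyruvate carrier, had -1.45 in tumors and -1.10 under MLN0128. Of 7 gluconeogenic genes, 5 were lower and 2 higher in vehicle-treated tumors, with *Pck1* at -6.32 and *Fbp1* at -4.46. Among the higher was *Fbp2*, whose mean in NL was 0.125 FPKM, so it passed the filter through the tumors alone. Under MLN0128, 2 were lower than under vehicle, *Pck2* (-1.99) and *Fbp2* (-1.96). The median log2 fold change of the 7 under MLN0128 against vehicle was -0.13, or -0.90 without replicates 1 and 2. Of 15 targets of HIF1 outside glycolysis, 8 were lower under MLN0128 than under vehicle and 0 higher, against 1 lower and 2 higher under everolimus, and 7 were lower under MLN0128 than under everolimus. The median log2 fold change of these 15 was -0.65 under MLN0128 and 0.10 under everolimus, against vehicle. Without MLN0128 replicates 1 and 2, the median of MLN0128 against vehicle was -0.75. Against everolimus it was -0.89, where all libraries gave -0.85. The largest falls under MLN0128 were those of *Ndrg1* (-2.21), *Ddit4* (-2.21), *Ero1l* (-1.61) and *Higd1a* (-1.52). Of 10 proliferation genes, 10 were higher in vehicle-treated tumors than in NL. The NL means of *Ccnb1*, *Top2a* and *Plk1* were 0.425, 0.438 and 0.348 FPKM. Being under the filter's 0.5, they needed tumor libraries to pass, so part of that count was built in. Under MLN0128, 1, *Pcna* (-0.48), was lower than under vehicle. The median log2 fold change of the 10 under MLN0128 against vehicle was -0.26, or 0.36 without replicates 1 and 2.

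Markers of other cell types moved with the treatments too. Over all tested genes, 14.9% were called higher and 17.1% lower under MLN0128 than under vehicle. The shares called lower were 6.04% for everolimus against vehicle and 5.54% for MLN0128 against everolimus. Of 3 tested erythroid markers, 3 were lower under MLN0128 than under everolimus, and the summed FPKM of the 4 with deposited values was 15.0 to 36.4 under MLN0128, 90.9 to 118 under everolimus, 32.3 to 79.4 under vehicle and 280 to 623 in NL. Of 4 tested biliary markers, 3 were lower with either drug than under vehicle, and the sum of 5 was 36.8 to 92.5 under vehicle, 10.3 to 28.1 under MLN0128 and 17.2 to 61.8 under everolimus. Mean FPKM was under the filter's 0.5 in NL and under MLN0128 for *Krt19* (0.400 and 0.493) and *Sox9* (0.337 and 0.188). Their passing leaned on other libraries, those under vehicle among them (means 27.7 and 2.50), so a fall from vehicle was partly built in. The 5 macrophage markers summed to 37.5 to 59.8 under vehicle, 14.2 to 24.9 under MLN0128 and 21.8 to 69.3 under everolimus, and 4 lymphocyte markers did not exceed 1.35 in any library. Of 5 hepatocyte markers, 2 were higher and 2 lower under MLN0128 than under vehicle. In MLN0128 replicate 3, the library left when replicates 1 and 2 are dropped, the sums were 36.4 (erythroid), 28.1 (biliary) and 24.9 (macrophage), each the highest of its group, and 1608 (hepatocyte), the lowest. Without those replicates, the median log2 fold change of the 3 erythroid markers against everolimus was -1.33, where all libraries gave -1.95. Against vehicle it was -1.11 for the 4 biliary and -1.13 for the 5 hepatocyte markers, where all libraries gave -1.56 and -0.84. The part of these shifts in the levels of the 10 glycolytic genes was not tested.

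The genes whose level followed the mean of the 10 most closely over all 12 libraries were *Ppm1g* (Pearson's r 0.987), *Psme3* (0.984), *Ccne2* (0.983), *Usp39* (0.983) and *Hspa4* (0.980). Over the 9 tumor libraries they were *Ctps* (0.981), *Amd2* (0.981), *Col4a3bp* (0.978), *Ncbp1* (0.9750) and *Usp39* (0.974). Among the 10 genes, r with that mean over the 9 tumors was 0.968 for *Pfkp*, 0.954 for *Gapdh*, 0.952 for *Pgk1*, 0.927 for *Tpi1*, 0.924 for *Pgam1*, 0.922 for *Ldha*, 0.833 for *Pfkl*, 0.762 for *Eno1*, 0.661 for *Gpi1* and -0.09 for *Pfkm*, each of which contributes to the mean itself. The libraries fall into treatment groups, so these values describe the pattern over the groups and carry no test.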

How the data were processed

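The authors had total RNA sequenced, counted reads per Ensembl gene and deposited FPKM (fragments per kilobase of transcript and sequencing depth, further scaled between libraries and rounded to 3 significant digits). Submitters' processing notes name FastQC 0.11.7 and GRCm38, and the aligner is not given in the sources used here. The authors tested genes with edgeR's glmTreat. FPKM are not counts, so limma 3.58.1 (R 4.3.3) was run here on log2(FPKM + 1) of all 12 libraries in 1 model, with an intensity trend and group as the only term. Of 17007 genes, the 14393 that reached 0.5 FPKM in 3 or more libraries were tested, and adjustment (Benjamini-Hochberg) ran over all of them. FPKM times GENCODE M21 exon length gave whole reads (within 0.1 read) for 98.2% to 98.8% of values under 20 reads, where chance gives 20.0%. limma's voom on these reads was an alternative. Isozyme shares were compared by exact permutation tests. Near-identical copies were found with BLAST 2.17.0 (at least 95% identity over at least 150 bases).

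The 10 genes and all lists were chosen with earlier results of these data known. Named besides the 10 were up to 4 called genes per list with the largest change, and the 5 genes most correlated with the mean standardized level of the 10. Tests were tried on simulated data. Replicate numbers did not pair libraries (18 same-numbered pairs, correlations -0.29 to 0.15, 1 over 0.1). Alternatives covered pseudocount, filter, scaling, threshold, libraries, prior variance, replicate block and single libraries. Tables were made with Python 3.11.15, pandas 2.3.3, scipy 1.17.1 and matplotlib 3.10.9.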

Additional observations from a re-analysis of the deposited data

How the results depend on the processing

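Over the 4 comparisons, 900 of 960 recomputed fold changes of the 10 genes kept their direction and their side of the threshold, 41 lost the call, 7 gained it and 12 changed sign. By the treat test (1.5-fold), 5 genes were higher and 0 lower in vehicle-treated tumors against NL, 1 was lower with MLN0128 than with vehicle and 0 than with everolimus. *Pfkm* was no longer called lower in tumors with equal FPKM sums (0 genes lower, log2 fold change 0.24) or plain library totals (0 genes lower, 0.020). Without MLN0128 replicates 1 and 2, 2 genes were lower with MLN0128 than with vehicle and 0 than with everolimus, and with the 2 drug groups alone 0 were. With each library left out in turn, 9 genes were higher and 1 lower in tumors throughout, 6 to 7 were lower with MLN0128 than with vehicle, 2 to 7 with MLN0128 than with everolimus (2 without MLN0128 replicate 1 or everolimus replicate 3, 3 without everolimus replicate 1), and with everolimus against vehicle 0 to 1 were higher (*Pfkl*, without everolimus replicate 2) and 0 to 1 lower (*Pfkm*, without vehicle replicate 2). Over all 14393 tested genes, the fit of the 2 drug groups alone called 1 higher and 5 lower. For MLN0128 against everolimus, 96 to 989 of all tested genes were called lower with each library left out in turn. The cause was not tested.

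Signs changed only among values that were not called, besides *Pfkm*. With MLN0128 against vehicle, *Gpi1* was 0.19 (equal FPKM sums), 0.10 (plain totals) or, over libraries left out, -0.12 to 0.053 (the latter without MLN0128 replicate 3), *Pfkl* 0.033 (equal sums) and *Eno1* 0.15 and 0.063 (equal sums and plain totals). With MLN0128 against everolimus, *Gpi1* was 0.042 (equal sums). With everolimus against vehicle, *Pfkp* ran from -0.16 (without everolimus replicate 3) to 0.28 over libraries left out, and *Pgk1* from -0.22 to 0.16 (0.084 and 0.16 without vehicle or everolimus replicate 2). Of the shares, the *Pfkm* difference with MLN0128 against vehicle ran from -0.68 to 2.26 percentage points over libraries left out, the *Ldha* difference between vehicle and normal liver from -0.59 to 0.039, and the *Pfkl* difference was -16.7 points from reads not divided by length. With the replicate block the counts were 9 higher and 1 lower in tumors, 6 lower with MLN0128 than with vehicle and 5 than with everolimus, as without it, and over all genes it changed those for MLN0128 against everolimus most, from 575 higher and 797 lower to 373 and 441. limma's voom on the recovered reads called 9, 1, 6 and 6 in the same order. Depth limited *Pfkp* in normal liver most, at 18 to 28 reads.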
